A study of Homo sapiens with 6 samples.

Results

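The genes described here encode the proteins of the core splicing machinery and the RNA-binding proteins that steer it, taken from RNA-seq of Kasumi-1 cells in which PHF19 was knocked down. Members were taken by gene symbol: every row of the count table named SNRP, SF3A or SF3B, U2AF1 or U2AF2, SRSF, CLK1 to CLK4, or HNRNP, leaving out antisense genes and pseudogenes. The rule was set with earlier results of these data known, so the counts below are a description. This gave 65 of 26410 rows, made up of 12 core snRNP genes, 11 SF3 and U2AF genes, 12 SR protein genes, 4 CLK kinase genes and 26 hnRNP genes. Of these, 57 had enough counts to be tested.

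Kasumi-1 is an established human cell line from an acute myeloid leukaemia. The cells of all 6 libraries received a lentiviral hairpin vector that also carries green fluorescent protein and puromycin resistance, and puromycin was added at 2 µg per ml from 48 hours on, for 24 hours or longer. The 3 shPHF19 libraries came from cells with a hairpin against PHF19, and the 3 control libraries from cells with a scrambled hairpin, although their treatment label reads WT. A single hairpin design is described, its sequence was not used here, and nothing says whether the 3 libraries of a group came from separate cultures. The p-values below therefore speak only of how much these libraries vary, and that variation may be technical.

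Introns are removed by the spliceosome, which is built from small nuclear ribonucleoproteins (snRNPs), each a small nuclear RNA wrapped in a ring of Sm proteins. The SF3A, SF3B and U2AF proteins place the U2 snRNP on the branch point and the end of the intron. SR proteins, which are phosphorylated by the CLK kinases, mostly promote the use of exons, while hnRNPs coat the nascent transcript and often repress them. PHF19 is a Polycomb-like subunit of PRC2, the complex that methylates histone H3 and is known for gene silencing.

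Each library held 14229878 to 16615143 counts. Levels are given as CPM, counts scaled to library size with trimmed-mean (TMM) factors, and 3 counts correspond to 0.177 to 0.223 CPM. PHF19 itself was at 168, 199 and 189 CPM in the controls and at 41.1, 36.9 and 33.0 CPM in the shPHF19 libraries. It was 5.00-fold lower (log2 change −2.32, SE 0.0975, adjusted p = 3.55e-25, edgeR quasi-likelihood test), with no overlap. Of 8 myeloid progenitor markers of the line, 7 were above 1 CPM, CD38 being near 0. Their summed level was 8060 to 8377 CPM in the controls and 12919 to 13699 CPM in the shPHF19 libraries. Sums over T cell markers, mostly CD3D, ranged from 34.8 to 41.4 CPM in the controls and from 48.9 to 53.0 CPM after knockdown, with CD3G near 0. B cell markers summed to 22.1 to 25.9 and 14.9 to 17.4 CPM, with MS4A1 near 0. Epithelial markers, mostly EPCAM, summed to 54.2 to 70.2 and 82.3 to 97.6 CPM, and no erythroid marker passed 1 CPM. What part these shifts have in the results below was not tested, and in bulk RNA fewer cells of a kind and less RNA per cell cannot be told apart.

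Splicing factor transcripts were mostly higher after PHF19 knockdown. Of the 57 genes tested, 43 were called higher and 4 lower at an adjusted p of 0.05, and 10 were not called. Across all 13014 genes tested, 60.2% were called, 29.4% higher and 30.9% lower. The median log2 change was 0.58 over the 57 genes, beside −0.03 over all genes tested. The 3 shPHF19 libraries lay entirely outside the range of the 3 controls for 45 of the 57, of which 41 were higher and 4 lower, beside 63.5% of all genes tested. A called change of 2-fold or more upward was seen for 12 genes, beside 5.72% of all genes, and the same downward for 0 genes by the fitted changes, beside 10.9% of all genes. CLK1 stood at that threshold itself, with a fitted log2 change of −0.999998, and leaving out 1 library at a time moved it between −1.13 and −0.88, so the count may equally be read as 1.

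The calls were counted for each of 5 classes. Core snRNP genes were called higher in 11 of 11 cases (median 0.81, range 0.28 to 1.07). SF3 and U2AF genes were higher in 10 of 11 (median 0.46, range −0.15 to 1.43), and SR genes in 8 of 11 (median 0.73, range −0.02 to 1.35). Among hnRNP genes, 13 of 20 were higher, 2 lower and 5 not called (median 0.54, range −0.62 to 1.41). The CLK kinases were divided, with 1 higher, 2 lower and 1 not called (median −0.37, range −1.0 to 0.73). The CLK median was −0.58 with library totals in place of TMM factors and −0.087 with trends on gene length and GC content removed, and library totals put the SF3 and U2AF median at 0.25 and the hnRNP median at 0.34. The difference between classes was not tested, since single genes carry the tests.

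**Figure D1:**
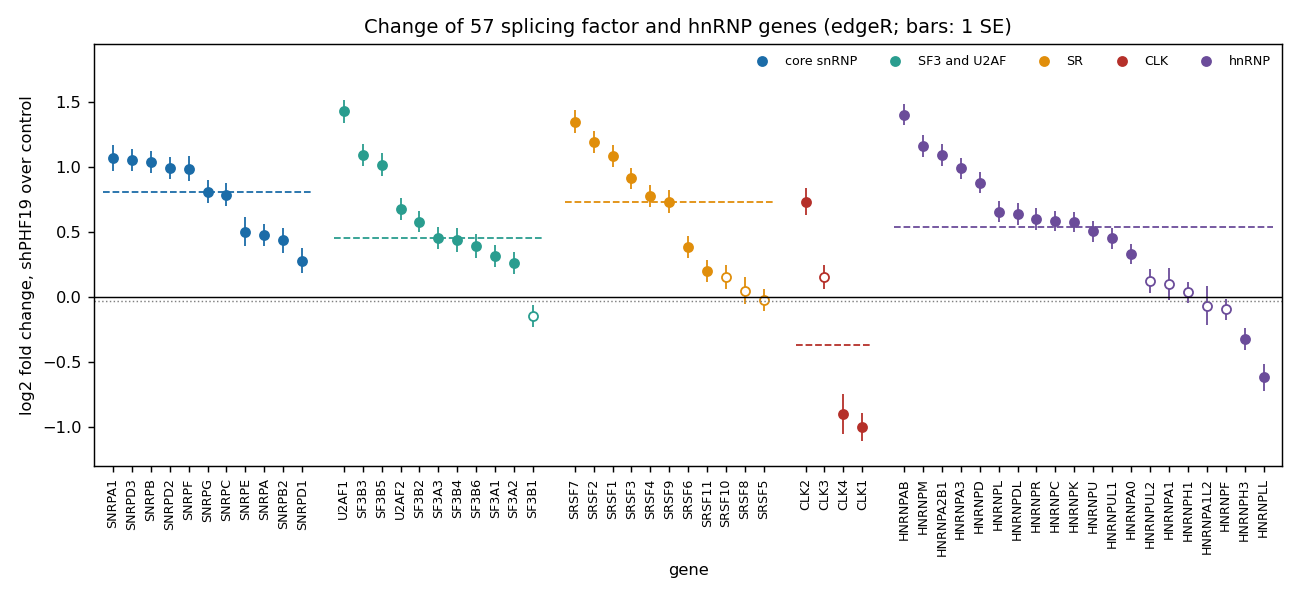
Log2 change in shPHF19 over control on the vertical axis for the 57 tested genes, grouped by class along the horizontal axis; each point is a gene with 1 SE as a bar, open where not called, dashed lines are class medians and the dotted line is the median of all genes tested (−0.03). All 11 core snRNP genes lie above 0, from 0.28 to 1.07, whereas the 4 CLK kinases spread from −1.0 to 0.73.

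Summed over a class, the libraries separated in the same way. Core snRNP transcripts made up 1115 ± 64.0 CPM in the controls and 1993 ± 63.9 CPM in the shPHF19 libraries (mean ± SD, n = 3 each), a ratio of 1.79. For SR genes the sums were 1797 ± 124 and 2996 ± 176 CPM, a ratio of 1.67. SF3 and U2AF genes went from 1995 ± 39.9 to 2996 ± 119 CPM, a ratio of 1.502, and hnRNP genes from 6638 ± 264 to 10129.8 ± 269.5 CPM, a ratio of 1.53. The CLK sum alone was lower, at 221 ± 11.6 and 196 ± 5.21 CPM, a ratio of 0.885. Without any scaling between libraries, the 65 genes took 1.26 ± 0.0413% of all counts in the controls and 1.70 ± 0.0510% in the shPHF19 libraries, so the direction of this total did not rest on the TMM factors.

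The size of single changes did depend on scaling. With library totals alone, the median log2 change of all genes was −0.24 and 31.5% of called genes were higher, against 48.8% with TMM factors; 36 members were then called higher and 7 lower, the added ones being SF3B1, SRSF5 and HNRNPF. Removing trends with gene length and GC content from each library put 59.2% of called genes on the higher side, with 50 members higher and 4 lower. The 7 genes added were SF3B1, SRSF5, SRSF10, CLK3, HNRNPUL2, HNRNPA1 and HNRNPH1. Across settings, 36 of the 43 genes called higher and 4 of the 4 called lower held their calls in each of 17 alternatives.

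The Sm ring and the proteins specific to U1 and U2 snRNPs rose throughout. SNRPD3, a subunit of the Sm ring, was at 110.3, 101 and 103 CPM in the controls and at 219, 211 and 222 CPM after knockdown (log2 change 1.06, SE 0.084, adjusted p = 3.59e-15). SNRPB, which encodes the ring proteins SmB and SmB', had 247, 269 and 234 CPM against 586, 479 and 479 CPM (1.04, SE 0.0865, adjusted p = 1.36e-14). SNRPD2, another ring subunit, had 152, 160.4 and 143 CPM against 325, 303 and 279 CPM (0.99, SE 0.0843, adjusted p = 2.84e-14). In each of these genes the lowest shPHF19 library was above the highest control.

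SNRPA1, the U2 A' protein that binds the U2 RNA, had a change within 1 SE of that of SNRPD3, from 46.2, 43.1 and 42.3 CPM to 85.0, 91.2 and 101 CPM (1.07, SE 0.0978, adjusted p = 2.75e-13). SNRPF went from 84.1, 77.4 and 61.5 CPM to 151, 144 and 148 CPM (0.99, SE 0.0946, adjusted p = 1.21e-12). SNRPG went from 79.1, 77.9 and 75.9 CPM to 129.6, 141 and 138 CPM (0.81, SE 0.0872, adjusted p = 3.56e-11). Both encode ring subunits, and neither had overlapping groups. Changes were 0.79 for SNRPC, part of the U1 snRNP, 0.48 for SNRPA, the U1 A protein, and 0.44 for SNRPB2, the U2 B'' protein.

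The remaining ring subunits rose less. SNRPE was at 53.9, 42.7 and 38.9 CPM in the controls and at 53.4, 63.4 and 75.3 CPM after knockdown (0.50, SE 0.115, adjusted p = 0.000182). SNRPD1 was at 129.6, 101 and 94.0 CPM against 123, 129 and 142 CPM (0.28, SE 0.0959, adjusted p = 0.0106). In both, control replicate 1 overlapped the shPHF19 libraries, and control replicates 2 and 3 lay below all 3 of them. The SNRPD1 call was lost without control replicate 3 (adjusted p = 0.127), with library totals alone (adjusted p = 0.518) and with upper-quartile factors (adjusted p = 0.100). GENCODE names 20 processed copies of SNRPG, 18 of SNRPC and 9 of SNRPE. The levels of these genes are uncertain, since the sources used here do not give how reads matching a copy were counted.

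Promoters of the tested genes were read after their changes were known, and the counts below carry no test. RefSeq start sites on GRCh38.p14 were found for 53 of the 57 tested genes, not for SNRPD1, SF3B3, SRSF2 and HNRNPA1. For 47 of these 53, the bases shortly after the start were found within an annotated transcript of the same gene. The start sites of the others are less certain. The letters CCGGAAG, the core recognised by ETS family transcription factors, were searched on both strands of the 250 bases before each start. They were present in 7 of 10 core snRNP promoters and in 7 of 10 SF3 and U2AF promoters, but in 2 of 10 SR, 3 of 19 hnRNP and 0 of 4 CLK promoters. The share was 35.8% of the 53, beside 15.9% of 9628 promoters of genes tested and 8.82% of all 27305 promoters. Other known motifs were counted in the same windows, so this share is not that of a motif singled out beforehand. Their shares are given under Other observations. A match is a description of these letters and not a binding site. For each core snRNP, SF3 and U2AF promoter with a CCGGAAG match, the match nearest to the start is printed below with its flanks. The strand is the one that reads CCGGAAG, in capitals, from RefSeq with GRCh38.p14 coordinates (SNRPE is shorter at its left end, where the promoter window begins).
SNRPA1 (chr15:101295344-101295373, plus strand): gggcgttcttgCCGGAAGtcgtggcgcgcg
SNRPB (chr20:2470812-2470841, minus strand): agtgagctggaCCGGAAGtaggtttctacc
SNRPB2 (chr20:16729992-16730021, minus strand): ggagccaggcaCCGGAAGcaacgtagccac
SNRPC (chr6:34757283-34757312, plus strand): aatacgctcttCCGGAAGcaccgacaaaca
SNRPD2 (chr19:45692362-45692391, plus strand): cctgcctacatCCGGAAGgggcatggacct
SNRPE (chr1:203861597-203861624, plus strand): ttctttattCCGGAAGttgctctcagag
SNRPG (chr2:70293491-70293520, plus strand): gcgacctcggaCCGGAAGaagaaatgaagt
SF3A1 (chr22:30356925-30356954, minus strand): aggggacggtcCCGGAAGtgcgccagtcgt
SF3A2 (chr19:2236804-2236833, plus strand): tctcatttgccCCGGAAGtgctttctttgc
SF3A3 (chr1:37990073-37990102, plus strand): ttccgcgagtgCCGGAAGtgccccgggact
SF3B2 (chr11:66052338-66052367, minus strand): gcgcgaccaacCCGGAAGctggggccagcc
SF3B4 (chr1:149927811-149927840, minus strand): ccgtcttcgccCCGGAAGtggaagtcgtgc
SF3B6 (chr2:24076328-24076357, plus strand): tccaggacccgCCGGAAGctgttacagcgg
U2AF2 (chr19:55654994-55655023, plus strand): gccggcggcggCCGGAAGtagccgaagcca

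Of these 14 matches, the one farthest from its start was that of SNRPE, at 241 bases, and the nearest that of SF3A2, at 9 bases. The core snRNP, SF3 and U2AF promoters without a match in the window belonged to genes with large and with small changes. These genes were U2AF1, SNRPD3, SF3B5, SNRPF, SNRPA and SF3B1, with log2 changes of 1.43, 1.06, 1.02, 0.99, 0.48 and −0.15. With a match, changes ran from 0.44 (SNRPB2) to 1.07 (SNRPA1) in core snRNP genes. In SF3 and U2AF genes with a match they ran from 0.26 (SF3A2) to 0.68 (U2AF2), below those of U2AF1 and SF3B5. Whether matches and changes were related was not tested.

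Among the SF3 and U2AF genes the spread was wider. U2AF1, the small subunit that reads the AG at the end of the intron, was at 97.9, 111 and 96.6 CPM in the controls and at 299.9, 254 and 271 CPM after knockdown. It was 2.70-fold higher (log2 change 1.43, SE 0.0875, adjusted p = 4.06e-19), the largest change among the 57 genes in the edgeR fit, with HNRNPAB (1.41) next and within 1 SE. Its partner U2AF2, which binds the pyrimidine tract, was at 248, 285 and 266 CPM against 479, 409 and 391 CPM (0.68, SE 0.0852, adjusted p = 2.32e-09). Neither gene had overlapping groups. RefSeq also lists U2AF1L5, a near-identical copy of U2AF1, so the level of U2AF1 is uncertain.

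SF3B3, a scaffold subunit of the SF3B complex, was at 236, 243 and 262 CPM in the controls and at 566, 531 and 486 CPM after knockdown (1.09, SE 0.083, adjusted p = 6.97e-16). SF3B5, a small subunit of the same complex, was at 72.9, 83.3 and 76.4 CPM against 170.1, 149 and 153 CPM (1.02, SE 0.089, adjusted p = 6.99e-14). SF3B2, the subunit that contacts the pre-mRNA near the branch point, was at 291, 331 and 310.1 CPM against 484, 452 and 456 CPM (0.58, SE 0.081, adjusted p = 3.18e-08). The shPHF19 libraries lay above all controls in each of these genes.

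Smaller changes were seen for SF3A3, at 119, 116 and 119 CPM against 149.5, 167 and 170.5 CPM (0.46, SE 0.0848, adjusted p = 8.36e-06). SF3B4 was at 90.6, 98.4 and 100.05 CPM against 143, 129 and 119.6 CPM (0.44, SE 0.089, adjusted p = 3.59e-05). SF3B6, which sits at the branch point, was at 128, 107 and 108 CPM against 128, 153 and 169 CPM (0.39, SE 0.0933, adjusted p = 0.000305). In SF3B6 the highest control and the lowest shPHF19 library were nearly equal. SF3A1 changed by 0.32 and SF3A2 by 0.26; with library totals alone the adjusted p was 0.0840 for SF3B6, 0.243 for SF3A1 and 0.571 for SF3A2, and for SF3A2 it was 0.102 with upper-quartile factors and 0.05002 without control replicate 1.

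SF3B1, the branch point subunit that is often mutated in myeloid neoplasms, was the exception of the class. It was at 367, 313 and 339 CPM in the controls and at 291, 298 and 331 CPM in the shPHF19 libraries, with overlapping groups. The log2 change of −0.15 (SE 0.0832, adjusted p = 0.12) turned to 0.13 with trends on gene length and GC content removed (adjusted p = 0.018). It was called lower with library totals alone (adjusted p = 0.000395), with upper-quartile factors and without shPHF19 replicate 3 (adjusted p = 0.0493). Counted in the same library, SF3B3 reads per SF3B1 read were 0.643, 0.776 and 0.772 in the controls and 1.94, 1.78 and 1.47 in the shPHF19 libraries.

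Of 11 SR protein genes tested, 8 rose and 3 were not called; with library totals alone SRSF5 was called lower. SRSF7, a regulator of splicing and of RNA export, was at 91.7, 83.8 and 73.2 CPM in the controls and at 202, 209.7 and 223 CPM after knockdown (log2 change 1.35, SE 0.0894, adjusted p = 7.05e-18). SRSF2, which binds exonic enhancers and is recurrently mutated in myeloid neoplasms, was at 237, 241 and 214 CPM against 515, 498 and 568 CPM (1.19, SE 0.0832, adjusted p = 3.86e-17). SRSF1, known for roles in constitutive and alternative splicing, was at 281, 248 and 264 CPM against 519, 549.7 and 619 CPM (1.09, SE 0.0839, adjusted p = 1.23e-15). Each of these genes was more than 2-fold higher, with no overlap between groups.

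SRSF3, the smallest SR protein, was at 282, 259 and 241 CPM in the controls and at 458, 484 and 531 CPM after knockdown (0.91, SE 0.0838, adjusted p = 3.25e-13). SRSF4 was at 99.3, 94.0 and 101 CPM against 164, 169.8 and 170.3 CPM (0.78, SE 0.0845, adjusted p = 4.99e-11). SRSF9 was at 85.5, 93.6 and 82.6 CPM against 155, 136 and 144 CPM (0.73, SE 0.0883, adjusted p = 7.97e-10). No shPHF19 library of these genes reached down to a control. Exons of SRSF9 share 46.2% of their length with GATC on the opposite strand, and those of SRSF2 share 36.7% with MFSD11. Since the strand setting of the counting is not given, reads of the partners cannot be told apart in these overlaps. The same holds for smaller overlaps of other members, such as HNRNPU (15.6% with COX20), SF3A2 (12.7% with PLEKHJ1), SNRPD3 (12.6% with GUCD1) and HNRNPAB (9.14% with PHYKPL). SNRPD3 also shares 12.0% with GGT1 on its own strand.

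SRSF6 changed by 0.39 (SE 0.0838, adjusted p = 9.81e-05), although with library totals alone its adjusted p was 0.0571. SRSF11 was at 154, 133 and 134 CPM in the controls and at 153, 154 and 177 CPM after knockdown (0.20, SE 0.0872, adjusted p = 0.0454). Its groups overlapped through control replicate 1, and its call was lost when control replicate 2 or 3 was left out (adjusted p = 0.124 and 0.163), and also when the second or the third shPHF19 library was (0.0622 and 0.227). With library totals alone its change was −0.01.

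The SR genes that were not called numbered 3. SRSF10, a splicing repressor when dephosphorylated, was at 186, 147 and 149 CPM in the controls and at 166, 169 and 202 CPM after knockdown (0.15, adjusted p = 0.144; −0.05 with library totals alone). SRSF8 was at 56.0, 47.7 and 45.8 CPM against 52.0, 52.2 and 50.3 CPM (0.05, adjusted p = 0.711; −0.16 with library totals alone). SRSF5 was at 178, 164 and 153 CPM against 157, 168 and 163 CPM (−0.02, adjusted p = 0.852; −0.23 and called lower with library totals alone, 0.20 and called higher with length and GC trends removed). All had overlapping groups. The directions of SRSF10 and SRSF8 turned with the scaling, and that of SRSF5 with the removal of trends, without the filter on low counts and on leaving out 1 library. SRSF10 was called higher without control replicate 1 (0.27, adjusted p = 0.00825) and without shPHF19 replicate 1 (0.21, adjusted p = 0.0331). SRSF12 was not tested, with 0, 0 and 2 counts in the controls and 0, 1 and 3 in the shPHF19 libraries.

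The CLK kinases, which phosphorylate SR proteins in the nucleus, went in both directions. CLK1 was at 112, 86.6 and 91.2 CPM in the controls and at 44.9, 43.1 and 57.0 CPM in the shPHF19 libraries, 2.00-fold lower (log2 change −1.0, SE 0.106, adjusted p = 2.65e-11). CLK4, the closest relative of CLK1, was at 17.3, 18.03 and 20.9 CPM against 10.2, 10.0 and 9.84 CPM (−0.90, SE 0.152, adjusted p = 1.65e-06). CLK2 was at 34.7, 37.3 and 33.9 CPM against 62.0, 57.4 and 56.8 CPM (0.73, SE 0.104, adjusted p = 4.28e-08). The groups overlapped in none of these, and all 3 calls held in each of the 17 alternatives.

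CLK3 was at 70.3, 71.0 and 70.6 CPM in the controls and at 82.9, 79.5 and 74.0 CPM after knockdown. Its groups did not overlap, yet its log2 change of 0.16 (SE 0.0927, adjusted p = 0.141) was not called, and it was −0.05 with library totals alone.

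**Figure D2:**
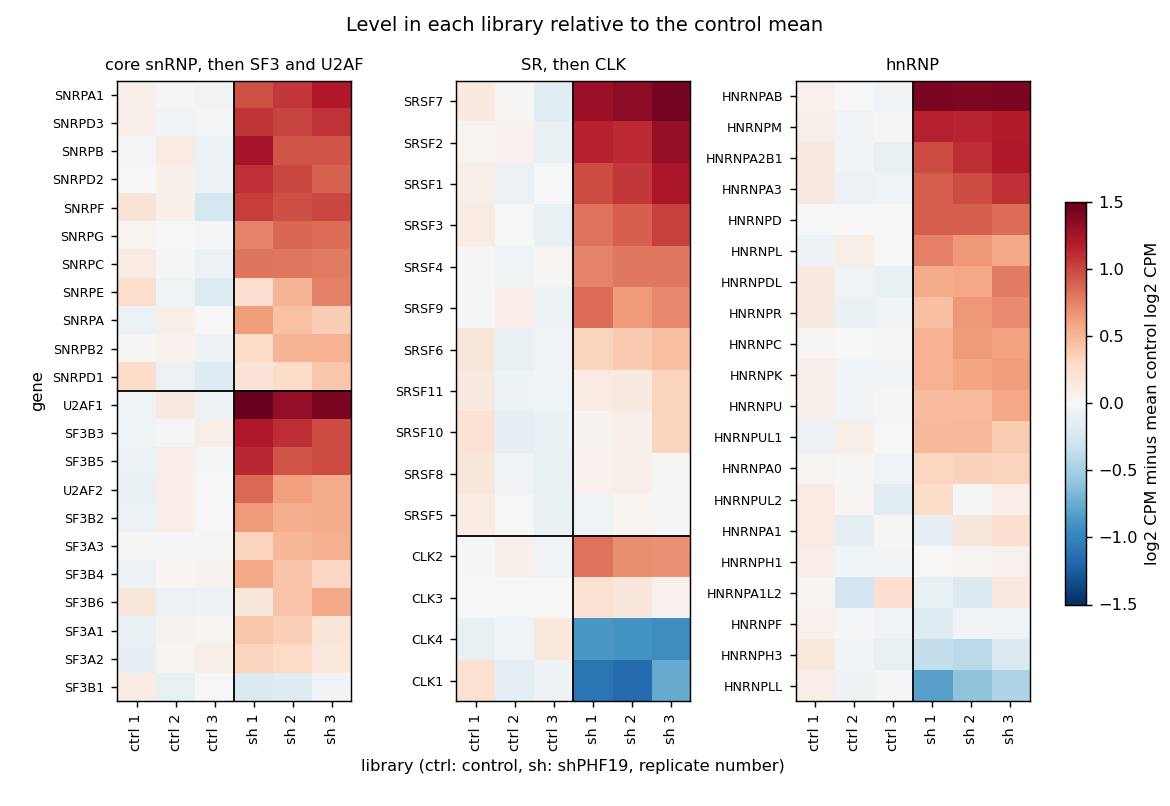
Level of the 57 tested genes (rows, by class) in each of the 6 libraries (columns), as colour: log2 CPM minus the mean log2 CPM of the controls, red for higher and blue for lower. U2AF1, SRSF7 and HNRNPAB are red in all 3 shPHF19 columns, CLK1, CLK4 and HNRNPLL are blue in all 3, and SF3B1 is pale.

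The hnRNP genes held both the most abundant members and several that were not called. HNRNPAB, which shuttles mRNA between nucleus and cytoplasm, was at 228, 217 and 209.9 CPM in the controls and at 581, 573 and 579.9 CPM after knockdown (log2 change 1.41, SE 0.0809, adjusted p = 4.84e-20). HNRNPM, a repressor and activator of alternative exons, was at 220.3, 200.4 and 204 CPM against 466, 459.7 and 473 CPM (1.16, SE 0.0812, adjusted p = 4.07e-17). HNRNPA2B1, a core component of hnRNP particles, was at 672, 592 and 564 CPM against 1194, 1305 and 1398 CPM (1.09, SE 0.0834, adjusted p = 8.94e-16). Each was more than 2-fold higher without overlap, and the HNRNPAB replicates had an SD of 8.91 CPM in the controls and 4.12 CPM in the shPHF19 libraries.

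HNRNPA3 was at 306, 262 and 269 CPM in the controls and at 522, 547 and 594 CPM after knockdown (0.99, SE 0.0836, adjusted p = 2.31e-14), and GENCODE names 16 processed copies of it. HNRNPD, or AUF1, which binds AU-rich elements, was at 408, 405 and 408 CPM against 763, 756 and 727 CPM (0.88, SE 0.0787, adjusted p = 1.45e-13). HNRNPL, which binds CA-rich RNA, was at 339, 379.7 and 355 CPM against 603, 559.6 and 532 CPM (0.66, SE 0.0813, adjusted p = 1.54e-09). None of them had overlapping groups. Further genes called higher were HNRNPDL (0.64), HNRNPR (0.60), HNRNPC (0.59), HNRNPK (0.58), HNRNPU (0.51), HNRNPUL1 (0.45) and HNRNPA0 (0.33), the last of which had an adjusted p of 0.152 with library totals alone.

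Those called lower among the hnRNP genes numbered 2. HNRNPLL, a relative of HNRNPL known for regulating CD45 splicing in lymphocytes, was at 67.2, 59.2 and 61.9 CPM in the controls and at 35.6, 41.2 and 45.6 CPM after knockdown (−0.62, SE 0.106, adjusted p = 1.9e-06). HNRNPH3, of the hnRNP H family that binds G-rich RNA, was at 287, 249.6 and 239 CPM against 202, 195 and 223 CPM (−0.32, SE 0.0853, adjusted p = 0.00105). Neither had overlapping groups. HNRNPF and HNRNPH1, relatives of HNRNPH3, were not called. HNRNPF was at 495, 467 and 456 CPM against 414, 459 and 455 CPM (−0.09, adjusted p = 0.317), although it was called lower with library totals alone (−0.30, adjusted p = 0.00115) and with upper-quartile factors (−0.20, adjusted p = 0.0309). HNRNPH1 was at 456, 409 and 416 CPM against 426, 441 and 447 CPM (0.04, adjusted p = 0.716; −0.17 with library totals alone).

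HNRNPUL2 was at 105, 98.3 and 86.4 CPM in the controls and at 117, 95.4 and 103 CPM after knockdown (0.12, adjusted p = 0.257; −0.08 with library totals alone). HNRNPA1 was at 28.4, 23.8 and 26.4 CPM against 23.9, 29.3 and 30.8 CPM (0.10, adjusted p = 0.508; −0.11 with library totals alone). HNRNPA1L2 was at 17.3, 13.8 and 20.04 CPM against 15.7, 14.4 and 18.6 CPM (−0.07, adjusted p = 0.728; 0.07 without control replicate 3). All had overlapping groups. HNRNPA1 is known as one of the most abundant hnRNPs, GENCODE names 75 processed copies of it, and its level here and that of its copy HNRNPA1L2 are uncertain for that reason. Another 7 genes were not tested: SNRPN, HNRNPCL1, HNRNPCL2, HNRNPCL3, HNRNPCL4 and HNRNPUL2-BSCL2 were listed at 0 in every library, and HNRNPH2 had 1 count in all. Some of these share exons with other counted genes on the same strand. SNRPN shares 23.8% of its exon length with SNURF, and HNRNPH2 16.3% with RPL36A-HNRNPH2. HNRNPUL2-BSCL2 shares exons with BSCL2 and HNRNPUL2, and HNRNPUL2 44.1% of its length with HNRNPUL2-BSCL2. Their levels are uncertain for that reason, and counts near 0 need not mean absence.

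Genes were compared roughly, per kilobase of the longest transcript annotated as principal, which need not be the one expressed. On this scale HNRNPC was the most abundant member in the controls (416 CPM per kb), followed by HNRNPK (243) and SNRPB (216). GENCODE names 9 processed copies of HNRNPC, 5 of HNRNPK and 1 of SNRPB, so their places in this order are uncertain. SRSF1 (175) and HNRNPA2B1 (174) came next and did not differ beyond their spread. In the shPHF19 libraries HNRNPC was again first (625 CPM per kb), SNRPB second (446), and SRSF1 (372) and HNRNPA2B1 (371) stood level with HNRNPK (363). CLK4 was near the lower end, at 7.31 and 3.91 CPM per kb, as was HNRNPA1, at 6.35 and 6.80 CPM per kb. The level of HNRNPA1 is uncertain because of its processed copies.

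Ratios of 2 genes within the same library do not depend on scaling between libraries. The pairs were chosen after their values were seen, so the ratios are a description. CLK2 per CLK1 was 0.310, 0.431 and 0.372 in the controls and 1.38, 1.33 and 0.996 in the shPHF19 libraries. CLK2 per CLK4 went from 1.90 ± 0.243 to 5.85 ± 0.180, and SRSF7 per SRSF5 from 0.502 ± 0.0206 to 1.30 ± 0.0625 (mean ± SD, n = 3 each). HNRNPAB per HNRNPH1 went from 0.511 ± 0.0165 to 1.32 ± 0.0379, and HNRNPL per its relative HNRNPLL from 5.73 ± 0.680 to 14.1 ± 2.67. Within the Sm ring, SNRPB per SNRPD1 went from 2.35 ± 0.392 to 3.95 ± 0.742. U2AF1 per U2AF2 went from 0.383 ± 0.0174 to 0.647 ± 0.0391. U2AF1 per U2AF1L4, a paralogue of the small subunit, went from 8.49 ± 0.205 to 49.1 ± 11.6. No pair had overlapping groups, but pairs chosen in this way cannot show how common such a difference is. Where the 2 genes differ in GC content, a ratio can also vary with the GC differences between replicates described below. CLK2 and CLK1 have 52.3% and 35.7% GC, whereas SRSF7 and SRSF5 have 41.3% and 40.4%. The part of GC content in these ratios was not tested.

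**Figure D3:**
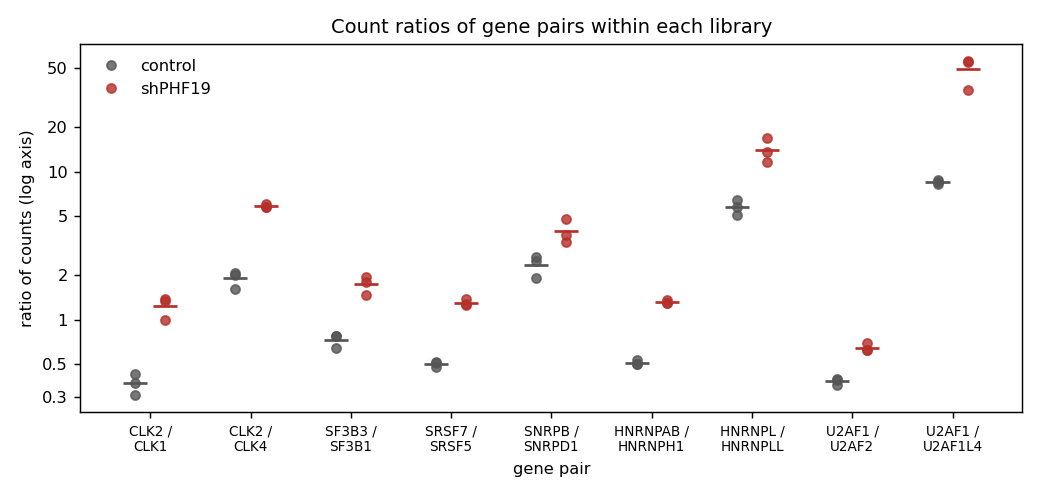
Ratio of counts of 2 genes within each library (log axis) for 9 pairs, with 3 control and 3 shPHF19 points per pair and a line at each group mean. All 9 ratios are higher in each shPHF19 library than in any control library, by 1.68-fold (SNRPB over SNRPD1) to 5.78-fold (U2AF1 over U2AF1L4) between group means.

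The replicates of a group differed along GC content. Among the 57 genes, the deviation of a library from its group mean correlated with the GC content of the gene's longest annotated transcript at r = −0.55, 0.48 and 0.21 in control replicates 1 to 3 and at 0.61, −0.09 and −0.60 in shPHF19 replicates 1 to 3. These are correlations across genes, which are not independent replicates. Over 12243 genes the values were −0.43, 0.38, 0.08, 0.41, −0.03 and −0.40. Of 29 members at or above the median GC content of 43.0%, 17 were highest in shPHF19 replicate 1 and 9 in shPHF19 replicate 3, while of 28 below it 4 and 20 were. SRSF7 and HNRNPA2B1, for example, were highest in replicate 3, and SNRPB and U2AF2 in replicate 1. The change itself was less tied to GC content, with r = 0.24 across the members and 0.11 across all genes, and −0.20 and −0.10 with exon length.

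**Figure D4:**
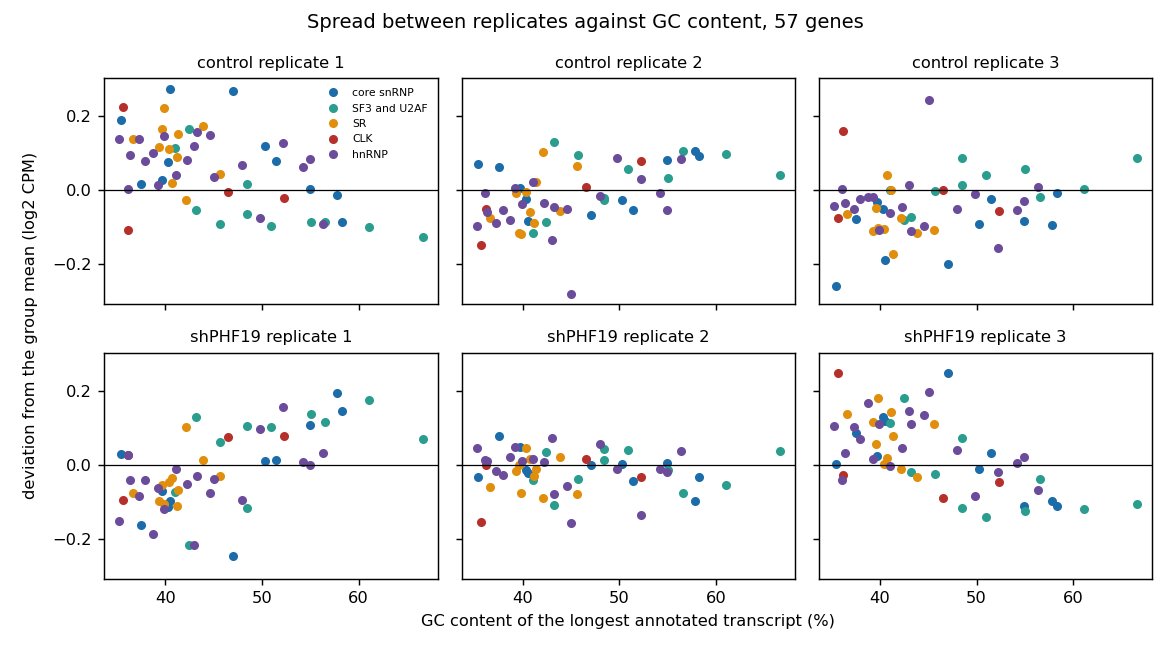
Deviation of each library from its group mean (log2) against the GC content of the longest annotated transcript (percent) for the 57 tested genes, coloured by class, in 1 panel per library. The slope is downward in control replicate 1 and shPHF19 replicate 3 (r = −0.55 and −0.60) and upward in control replicate 2 and shPHF19 replicate 1 (r = 0.48 and 0.61).

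Splicing factor genes are known to produce transcripts with a premature stop that are removed by nonsense-mediated decay, through which many SR proteins limit their own level. GENCODE annotates such a transcript for 11 of 11 tested SR genes, 13 of 20 hnRNP genes, 3 of 4 CLK genes, 5 of 11 SF3 and U2AF genes and 4 of 11 core snRNP genes. The share over the 57 was 63.2%, beside 44.0% of 11487 protein-coding genes tested. A transcript with a retained intron was annotated for 66.7% of the 57 and 58.6% of the protein-coding genes. The counts are per gene, so a higher count does not tell the productive transcript from the others. Of 10 genes of the decay pathway itself, 0 were called higher and 3 lower, a share of 30% lower beside 30.9% of all genes, so the lower count is at the background: SMG1 (−0.62, adjusted p = 3.17e-08), UPF2 (−0.50, adjusted p = 4.52e-05) and UPF3B (−0.43, adjusted p = 0.00138).

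The other parts of the splicing pathway were taken from 9 lists of known genes and read against the same 29.4% higher and 30.9% lower. Of 17 proteins specific to the U1, U4/U6 and U5 snRNPs, 14 were called higher and none lower (median 0.70). SNRNP70 of the U1 snRNP went from 99.5 to 257 CPM (1.37, SE 0.085, adjusted p = 7.15e-19), EFTUD2 of the U5 snRNP changed by 1.25 and SNRNP40 by 1.03. Of the 7 LSm proteins that ring the U6 RNA, 5 were higher and 1 lower (median 0.51), with LSM7 at 1.37, LSM6 at 1.14 and LSM3 at 0.58. The lower one was LSM8, without overlap (−0.40, adjusted p = 0.00118, up to 0.130 in the alternatives). Of 13 further U2-associated factors tested, 6 were higher and 3 lower (median 0.19), with PUF60 at 1.08, CHERP at 0.97 and SF1, the branch point binding protein, at 0.67.

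The factors that load Sm proteins onto the RNA also rose in part. Of 17 genes of the SMN complex and of Sm protein methylation tested, 11 were higher and none lower (median 0.35). PRMT5, the enzyme that methylates Sm proteins, went from 53.0 to 127 CPM (1.26, SE 0.0998, adjusted p = 3.53e-15), its partner WDR77 changed by 1.31 and GEMIN4 by 1.16. SMN1 and SMN2, which are nearly identical, were listed at 0. Among 20 SR protein kinases, TRA2 and SR-related proteins, 11 were higher and 5 lower (median 0.28), with SRRM1 at 0.70, ACIN1 at 0.63 and TRA2B at 0.60. The kinases in this list were not among the higher genes. SRPK2 was called lower (−0.30, adjusted p = 0.0110, up to 0.345 in the alternatives), and SRPK1 (−0.04) and PRPF4B (0.15) were not called. Among 20 genes of the Prp19 complex, the catalytic helicases and the exon junction complex, 10 were higher and 4 lower (median 0.27), with RNPS1 at 1.26, EIF4A3 at 1.01 and PLRG1 at −0.88.

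The minor spliceosome removes a rare class of introns. Of its 9 specific genes tested, 1 was higher and 2 lower (median −0.07). SNRNP25 went from 25.5 to 77.4 CPM (log2 change 1.60, SE 0.113, adjusted p = 6.06e-17), RNPC3 from 14.7 to 7.74 CPM (−0.92, SE 0.17, adjusted p = 8.9e-06) and SNRNP48 changed by −0.45. Of 22 other regulators of alternative splicing, 10 were higher and 8 lower (median 0.14), with PTBP1, a repressor of exons, at 0.88 and TARDBP at 0.84. The lower ones included MBNL3 (−0.88, adjusted p = 1.75e-09), TIA1 (−0.79, adjusted p = 1.02e-09) and RBM39 (−0.71, adjusted p = 1.93e-09), named after their values were seen. Whether any of these lists differed from the 57 genes was not tested.

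The authors' deposited table of 5740 changed genes listed 43 of the 65 members, 40 as higher and 3 as lower. The direction in the authors' deposited table was that of the edgeR fit in 43 of 43 cases, and the log2 change differed by a median of 0.0138 in absolute value. The 4 members called by edgeR that it does not list are SNRPD1, SF3A2, SRSF11 and HNRNPH3, whose changes by edgeR were 0.28, 0.26, 0.20 and −0.32.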

How the data were processed

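RNA of Kasumi-1 cells was sequenced from 6 KAPA Hyper Prep libraries, 3 with the control hairpin and 3 with shPHF19, per the labels' protocols. The authors deposited whole-number read counts per gene symbol; the submitters' processing notes name HISAT2 2.1.0, HTSeq 0.11.2 and the build hg38. No annotation release, strand setting or handling of reads with several matches is named there. A second file that the authors deposited holds their own comparison as normalised mean counts (signal), log2 fold changes with standard errors, and p-values; only its rows of members are quoted.

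Counts were analysed with edgeR 4.0.16 in R 4.3.3: genes kept by filterByExpr, TMM factors, a robust quasi-likelihood F test with group as the only term, and Benjamini-Hochberg adjustment over all 13014 genes tested (threshold 0.05). Any adjusted p in the text is from that test unless another setting is named, and the SE is the log2 change divided by the square root of F. On simulated counts the script was checked to return the changes put in. The simulation changed few genes, equally often up and down, and held no GC trend. It therefore does not show how the calls depend on scaling. Replicate libraries differed by more than counting noise (chi-square per degree of freedom 4.78 to 12.4). Gene positions, lengths, GC content and processed copies came from GENCODE 29 by symbol (94.1% of genes tested matched), and promoters from RefSeq on GRCh38.p14.

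Values in every library are given for the CLK kinases, U2AF1 and U2AF2, for 6 genes with the smallest adjusted p in each other class, for members called against their class and for those not called; from each pathway list, up to 3 genes are named. A gene that the last of these rules would name is not reported here. The members, lists and rules were chosen with earlier results of these data known. Alternatives were other scaling factors, other filters, DESeq2 1.42.0, limma-voom 3.58.1, a replicate block, trends with length and GC content (loess span 0.3), and leaving out each library. Same-numbered libraries did not deviate together (r = −0.16, −0.01 and −0.05), so the numbers were not taken as pairs.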

Additional observations from a re-analysis of the deposited data

How the results depend on the processing

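With library totals alone 7 members were called lower, and the class medians were 0.61 (core snRNP), 0.25 (SF3 and U2AF), 0.53 (SR), −0.58 (CLK) and 0.34 (hnRNP). Upper-quartile factors gave 0.71 (core snRNP), 0.36 (SF3 and U2AF), −0.48 (CLK) and 0.44 (hnRNP). With the length trend removed the medians were 0.55 (SF3 and U2AF), −0.16 (CLK) and 0.71 (hnRNP), and with length and GC trends removed 0.85 (SR), −0.087 (CLK) and 0.76 (hnRNP). Leaving out 1 library at a time gave 41 to 44 members higher, 4 to 5 lower and CLK medians from −0.39 to −0.33. The cause of these shifts was not tested.

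Genes near 0 changed sign. With library totals alone the log2 change was −0.0058 for SRSF11, −0.050 for SRSF10, −0.16 for SRSF8, −0.050 for CLK3, −0.083 for HNRNPUL2, −0.11 for HNRNPA1 and −0.17 for HNRNPH1. With upper-quartile factors it was −0.055 for SRSF8, −0.0028 for HNRNPA1 and −0.066 for HNRNPH1. SF3B1 was at 0.037 and SRSF5 at 0.096 with the length trend removed, and at 0.13 and 0.20 with length and GC trends removed, where both were called higher (adjusted p = 0.018 and 0.0028, edgeR). SRSF5 was at 0.0013 without the filter. Leaving out 1 library at a time gave −0.067 to 0.035 for SRSF5, −0.0053 to 0.14 for SRSF8 and −0.19 to 0.071 for HNRNPA1L2.

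The replicate block gave 42 members higher and 4 lower (SRSF11 lost, adjusted p = 0.117) and 3555 genes higher and 3752 lower in all. The block with length and GC trends removed gave 50 higher and 4 lower, medians of 0.85 (SR), −0.086 (CLK) and 0.76 (hnRNP), and 0.13 for SF3B1 and 0.20 for SRSF5. Depth limits CLK4 and HNRNPA1L2 most, at about 10 to 20 CPM. SRSF12 and HNRNPH2 had too few counts to test, and HNRNPH2 shares exons with another counted gene.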

Other observations

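Further known motifs were counted in the promoters, with the share of the 53 set beside that of promoters of genes tested. The E-box was present in 15.1%, beside 9.18%. The GC box was present in 62.3%, beside 66.4%. The TATA box was present in 11.3%, beside 5.36%. The CRE motif was present in 0%, beside 2.90%. For the CCAAT box the share was 37.7%, beside 35.2%. CCAAT, read by the NF-Y complex, was present on either strand of the 250 bases before the start in 12 of 19 hnRNP promoters (63.2%), 4 of 10 core snRNP, 2 of 10 SR, 1 of 4 CLK and 1 of 10 SF3 and U2AF promoters, beside 35.2% of promoters of genes tested. These counts were made after the changes were known and carry no test.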
